A study of Homo sapiens with 6 samples.

Results

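Aminoacyl-tRNA synthetases are the enzymes that attach each amino acid to its transfer RNA (tRNA), the step that supplies the ribosome with charged tRNA. Human cells keep separate sets of these enzymes in the cytosol and in mitochondria, nearly all encoded by nuclear genes of their own. When amino acids run short, uncharged tRNA activates the kinase GCN2, and the transcription factor ATF4 then induces many cytosolic synthetase genes together with genes of amino acid synthesis and uptake. The 36 synthetase genes described here were taken from a list of gene symbols, 18 of cytosolic enzymes, 2 of enzymes that serve both compartments and 16 of mitochondrial enzymes. All 36 were measured, among 18404 genes tested.

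The cells were MEC-1, an established line of leukemic B cells, grown in RPMI medium with FCS but without phenol red or antibiotics. Lentivirus delivered either a short hairpin RNA against UGT2B17, an enzyme that conjugates steroids and other small molecules with glucuronic acid, or a scrambled hairpin. Total RNA was read on 6 arrays, 3 of knockdown cells and 3 of scrambled shRNA cells. Both groups therefore carried a lentiviral hairpin, and no untransduced cells were compared. The labels give neither the time after transduction nor the number of hairpins, and effects of the hairpin other than on UGT2B17 cannot be told apart from the knockdown. Nor do they say whether the replicates were cultured separately, and the spread behind each p-value may be technical.

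UGT2B17 itself read 3.19, 3.27 and 3.17 on the log2 scale in the 3 knockdown arrays, against 3.95, 3.69 and 3.91 in the 3 scrambled arrays. The difference was −0.64 ± 0.08 log2 units (SE; limma, adjusted p = 0.00654). Its mean level lay at percentile 1.98 of all genes, where signal near background makes the size of a difference uncertain. The 6 measured B cell markers had mean levels from 9.60 to 12.3 and the 17 measured markers of other cell types from 3.32 to 7.23. Of either set, 0 passed an adjusted p under 0.05 (limma), beside 3.61% of all genes. Scrambled replicate 3 stood apart, since it deviated from its own group by 0.166 log2 units (root mean square over genes) and the other 5 arrays by 0.117 to 0.142. This array bears on nearly every synthetase gene: it was the highest of the 3 scrambled arrays for 34 of the 36, against 41.2% of all genes, and the highest of all 6 arrays for 25 of the 36, against 28.9% of all genes. Scrambled replicate 1 was the lowest of the 3 scrambled arrays for 29 of the 36, against 6289 of all 18404 genes. Its mean correlation was 0.9946 with the knockdown arrays and 0.9943 with the other scrambled arrays.

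CARS1 rose in the knockdown, 0 synthetase genes fell and the other 35 did not pass, at an adjusted p under 0.05 (limma). Over all genes 3.61% passed by the same rule, 1.92% higher and 1.69% lower, so 1 of 36 is close to the background. At an unadjusted p under 0.05 there were 3 of 36 above 0, against 8.70% of all genes, and 7 of 36 below 0, against 9.45%. The estimates spread in both directions among cytosolic enzymes, 9 of 18 above 0 and 9 below, with a median log2 fold change of −0.02. Among mitochondrial enzymes 4 of 16 were above 0 and 12 below, with a median of −0.09. Without scrambled replicate 3 the mitochondrial median was −0.01, with 6 above 0 and 10 below, and the cytosolic median was 0.06, against −0.08 without scrambled replicate 1. The median over all genes tested was −0.002, and 49.3% of them were above 0. On simulated data with the spread of these arrays, the test recovered 90.6% of genes changed by 0.5 log2 units but 0% of those changed by 0.25, and 27 of the 36 estimates were smaller than 0.25 in size.

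**Figure D1:**
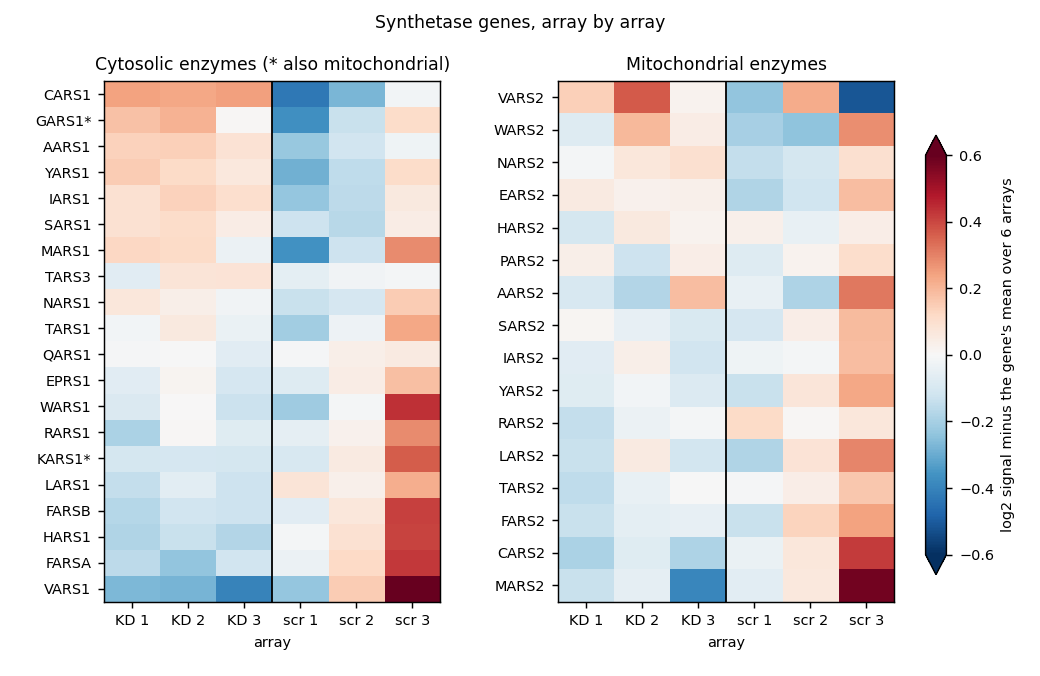
Log2 signal of each synthetase gene on each array, as the difference from that gene's mean over the 6 arrays, with cytosolic enzymes on the left, mitochondrial enzymes on the right and knockdown (KD) arrays before scrambled (scr) arrays. The upper cytosolic rows, led by CARS1, are red on the KD arrays, while the lower rows, ending with VARS1, are darkest red on scrambled replicate 3. The colour scale ends at ±0.6.

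CARS1, the cytosolic cysteinyl-tRNA synthetase, read 8.66, 8.66 and 8.67 log2 units in the knockdown arrays, against 7.99, 8.15 and 8.41 in the scrambled arrays. The knockdown arrays lay almost on one another and above all scrambled arrays, whose spread was far wider. The means were 8.66 ± 0.01 in knockdown cells and 8.18 ± 0.21 in scrambled shRNA cells (SD, n = 3 each). The log2 difference was 0.48 ± 0.10 (SE), that is 1.40-fold, with a 95% interval of 0.25 to 0.71 (limma, adjusted p = 0.0361). Without any 1 array the estimate stayed between 0.39 and 0.59, but the adjusted p ran from 0.00645 without scrambled replicate 3 to 0.134 without knockdown replicate 2. It passed only in the first of these 6 fits, and testing every deposited probe set gave 0.127. Array signal is relative to the RNA hybridised, so more RNA per cell and more cells with the transcript cannot be told apart, here or below.

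Part of the CARS1 promoter is shown because it holds, across the transcription start, an 8-base match to the element that ATF4 is known to bind. The sequence is from RefSeq, GRCh38.p14, chr11:3057404-3057603, minus strand, from position −180 to position 20 of the transcript, with the match in capitals.
CARS1 promoter: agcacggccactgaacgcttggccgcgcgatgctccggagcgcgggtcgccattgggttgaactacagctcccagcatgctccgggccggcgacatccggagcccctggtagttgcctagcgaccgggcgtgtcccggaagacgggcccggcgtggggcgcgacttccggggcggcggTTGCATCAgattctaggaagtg

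Next to CARS1, the cytosolic genes with the smallest p above 0 were AARS1 and IARS1, which charge alanine and isoleucine. AARS1 read 11.01, 11.01 and 10.95 in the knockdown arrays, against 10.64, 10.75 and 10.84 in the scrambled arrays. IARS1 read 11.44, 11.49 and 11.45 in the knockdown arrays and 11.12, 11.19 and 11.40 in the scrambled arrays. Neither gene's groups overlapped, and CARS1 was the third and last of the 36 genes with all knockdown arrays on top. That is 8.33% of the members, against 11.8% of all genes. The log2 fold changes were 0.24 ± 0.07 for AARS1 (SE; limma, adjusted p = 0.108) and 0.22 ± 0.08 for IARS1 (adjusted p = 0.209). YARS1, the tyrosyl enzyme, read 0.22 ± 0.10 higher, SARS1, the seryl enzyme, 0.16 ± 0.07 and MARS1, the methionyl enzyme, 0.14 ± 0.14, each with overlapping groups and none passing. GARS1, the glycyl enzyme of both compartments, read 11.46, 11.49 and 11.29 in the knockdown arrays, against 10.92, 11.15 and 11.39 in the scrambled arrays. The lowest knockdown value of GARS1 lay below the highest scrambled value, and its difference of 0.26 ± 0.12 did not pass (limma, adjusted p = 0.288). It was 0.14 without scrambled replicate 1, and it passed with array weights (0.27; limma, adjusted p = 0.0274). With those weights 3511 genes were called over the whole array, against 665 without them, so passing there sets GARS1 less apart. The weights also called 9 cytosolic synthetase genes, 5 higher and 4 lower, and rested most on scrambled replicate 2, at 6.12. Without scrambled replicate 1, YARS1 was at 0.13 and MARS1 at −0.01. Without scrambled replicate 3, IARS1 at 0.30 and YARS1 at 0.33 passed (limma, adjusted p = 0.0384 and 0.0414) beside CARS1 at 0.59, AARS1 was at 0.29 (adjusted p = 0.0503) and no synthetase gene fell.

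NARS1, TARS1 and TARS3, which charge asparagine and, for the last pair, threonine, had log2 fold changes of 0.05, 0.003 and 0.06. For NARS1 and TARS1 scrambled replicate 3 was above, and scrambled replicate 1 below, every other array. QARS1, the glutaminyl enzyme, averaged 11.68 ± 0.04 in knockdown cells and 11.73 ± 0.03 in scrambled shRNA cells (SD, n = 3 each). Its difference was −0.05, with a 95% interval of −0.19 to 0.09.

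**Figure D2:**
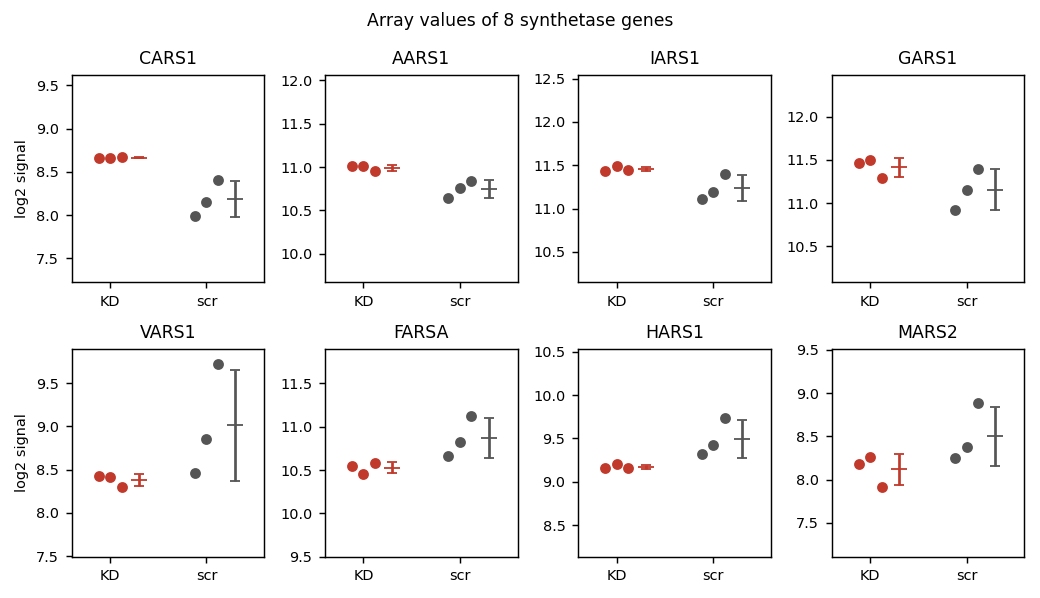
Log2 signal of 8 synthetase genes on the 3 knockdown (KD) and 3 scrambled shRNA (scr) arrays, each point 1 array, with the group mean and SD beside the points, on axes of equal length. CARS1, AARS1 and IARS1 have KD points above all scr points, while VARS1, FARSA and HARS1 have them below, with a wide scr group in each.

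Among the cytosolic genes that read lower, VARS1, FARSA, HARS1, FARSB and LARS1 had all knockdown arrays below all scrambled arrays, as did KARS1 of both compartments and the mitochondrial CARS2 and RARS2. These 8 are 22.2% of the members, against 13.1% of all genes. VARS1, the valyl enzyme, had the largest difference of the 36, at 8.42, 8.42 and 8.30 in the knockdown arrays and 8.46, 8.85 and 9.72 in the scrambled arrays. Scrambled replicate 3 decided its size: the log2 fold change was −0.63 ± 0.26 (SE; limma, adjusted p = 0.239), but −0.28 without scrambled replicate 3 and −0.91 without scrambled replicate 1. FARSA and FARSB encode the alpha and beta subunits of 1 phenylalanyl enzyme and read much alike. FARSA was at 10.54, 10.46 and 10.58 in the knockdown arrays, against 10.66, 10.82 and 11.12 in the scrambled arrays. FARSB was at 10.70, 10.76 and 10.75 in the knockdown arrays, against 10.81, 10.94 and 11.28 in the scrambled arrays. Their log2 fold changes were −0.34 ± 0.11 and −0.28 ± 0.11 (SE; limma, adjusted p = 0.142 and 0.239), and −0.21 and −0.14 without scrambled replicate 3.

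HARS1, which charges histidine, read 9.16, 9.20 and 9.16 in the knockdown arrays, against 9.32, 9.42 and 9.74 in the scrambled arrays. LARS1, the leucyl enzyme and a known leucine sensor of the mTORC1 pathway, read 9.66, 9.74 and 9.68 in the knockdown arrays, against 9.88, 9.84 and 10.02 in the scrambled arrays. KARS1, the lysyl enzyme, was at 9.89, 9.90 and 9.89 in the knockdown arrays, against 9.90, 10.05 and 10.36 in the scrambled arrays. In all 3 genes the knockdown arrays were tightly grouped, and scrambled replicate 3 was the array farthest from them. The log2 fold changes were −0.32 ± 0.10 for HARS1, −0.22 ± 0.07 for LARS1 and −0.21 ± 0.11 for KARS1 (SE; limma, adjusted p = 0.135, 0.142 and 0.351). Without scrambled replicate 3 they were −0.20, −0.17 and −0.08. RARS1, EPRS1 and WARS1, which charge arginine, glutamate with proline, and tryptophan, were at −0.17, −0.10 and −0.14, with overlapping groups.

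WARS1 is also a known interferon gamma target, and a list of other such targets was examined beside it. That list too was chosen with earlier results of these data known. WARS1 read 9.92, 10.00 and 9.87 in the knockdown arrays, against 9.79, 9.99 and 10.44 in the scrambled arrays. Of the 10 measured genes of that list, GBP4, a guanylate-binding protein, fell by 0.75 ± 0.07 and IRF1, a transcription factor, fell by 0.40 ± 0.08 (SE; limma, adjusted p = 0.0017 and 0.0256), 0 rose and 8 did not pass, beside 1.69% fallen over all genes. Between 1 and 3 genes of the list were called without 1 array, an alternative added after seeing the data. WARS1 turned to 0.04 without scrambled replicate 3, so its direction rested on that array.

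**Figure D3:**
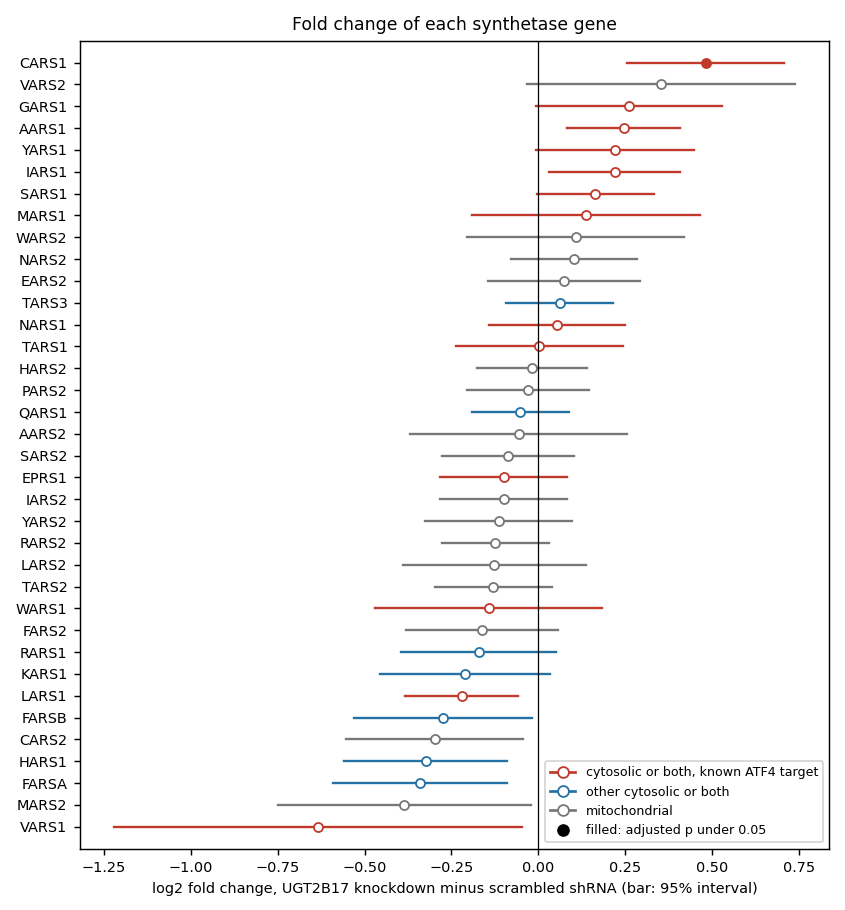
Log2 fold change of each of the 36 genes, knockdown minus scrambled shRNA, with its 95% interval from limma, coloured by compartment and by membership of a list of known ATF4 targets. CARS1 at the top is the filled point that passed, and VARS1 at the bottom has the widest interval.

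Of the 20 cytosolic and both-compartment genes, 13 were listed as ATF4 targets, from background knowledge but with earlier results of these data known. Of these, 9 were above 0 and 4 below (VARS1, LARS1, WARS1 and EPRS1), with a median log2 fold change of 0.14. Of the 7 outside that list, 1 was above 0 and 6 below, with a median of −0.21. The gap between the medians, 0.35, ran from 0.31 to 0.39 over the 6 fits without 1 array. Without scrambled replicate 1 the medians were −4e-05 and −0.31, and 6 of the 13 were above 0, so the position of the listed genes against 0 depended on that array. Without scrambled replicate 3 they were 0.23 and −0.08, so the position of the other genes below 0 rested in large part on that one.

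A promoter sequence search was then made on the same genes. The search itself did not use the signal, but the genes and lists were chosen with earlier results of these data known. The motif is that of ATF4, so the split it gives is not independent of the ATF4 list. RefSeq promoter windows, 250 bases before and 50 after each start in GRCh38.p14, were found for 30 of the 36 genes. They were searched on both strands for TGATGNAA, the core of the C/EBP-ATF response element, which reads TTNCATCA on the other strand. A narrower form, TGATGCAA, is contained in the first. The wider motif was in a window of 7 of 16 cytosolic or both-compartment genes, 1 of 14 mitochondrial genes, YARS2, and 3.59% of 14230 tested genes with a window. The narrower motif was in 6 of the 16, 0 of the 14 and 0.970% of tested genes. The 7 sites are shown with 10 bases on either side, in the direction of the gene and with the match in capitals, since the comparison within arrays described next is made on these genes.
CARS1, chr11:3057408-3057435, minus strand: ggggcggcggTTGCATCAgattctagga
GARS1, chr7:30594835-30594862, plus strand: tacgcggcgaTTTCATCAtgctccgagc
AARS1, chr16:70289676-70289703, minus strand: tttctcgcagTTGCATCAgccaagttag
IARS1, chr9:92293693-92293720, minus strand: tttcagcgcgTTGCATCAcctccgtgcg
MARS1, chr12:57488054-57488081, plus strand: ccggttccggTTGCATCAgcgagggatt
NARS1, chr18:57621805-57621832, minus strand: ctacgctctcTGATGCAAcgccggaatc
TARS1, chr5:33440957-33440984, plus strand: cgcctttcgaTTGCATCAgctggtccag

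In CARS1, MARS1, IARS1 and TARS1 the match lay across or within 13 bases of the start, in NARS1 at 15 and in GARS1 at −33. In AARS1 it lay at −187. All 7 genes had estimates above 0, from 0.003 for TARS1 to 0.48 for CARS1, with a median log2 fold change of 0.22. The 9 cytosolic or both-compartment genes with a window and no match were EPRS1, FARSA, FARSB, HARS1, QARS1, RARS1, SARS1, WARS1 and KARS1. Of these, SARS1 was above 0 and 8 were below, with a median of −0.17. All 7 matched genes are in the ATF4 list, where 10 of 13 had a window (LARS1, VARS1 and YARS1 had none), so motif and list describe overlapping genes. A match is a run of letters and shows no binding. Over all genes tested, the motif was in 4.07% of the risen genes with a window and in 5.60% of the fallen genes.

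Array by array, the mean deviation of the 7 matched genes from their own 6-array means was 0.12, 0.13 and 0.05 in the knockdown arrays, against −0.28, −0.13 and 0.11 in the scrambled arrays. The 9 genes with no match had −0.10, −0.05 and −0.09 in the knockdown arrays, against −0.08, 0.03 and 0.29 in the scrambled arrays. Both sets were highest among scrambled arrays in replicate 3 and lowest in replicate 1. Subtracting the second set from the first within each array gave 0.21, 0.18 and 0.14 in the knockdown arrays, against −0.20, −0.16 and −0.18 in the scrambled arrays. The groups did not overlap, and scrambled replicate 3 lay between the other scrambled arrays. Centring on 6-array means makes the groups' sums opposite in sign, so only the lack of overlap is left to read. No test of this difference was run, and an exact permutation p from 3 against 3 arrays could be no smaller than 0.1. How often other gene sets separate in this way was not computed. The gap between the sets' medians, 0.39, ran from 0.36 to 0.43 over the 6 fits without 1 array and was 0.33 with array weights. Without scrambled replicate 1 the medians were 0.14 and −0.29, and 4 of the 7 matched genes were above 0. Without scrambled replicate 3 they were 0.30 and −0.07, with 2 of the 9 genes without a match above 0.

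**Figure D4:**
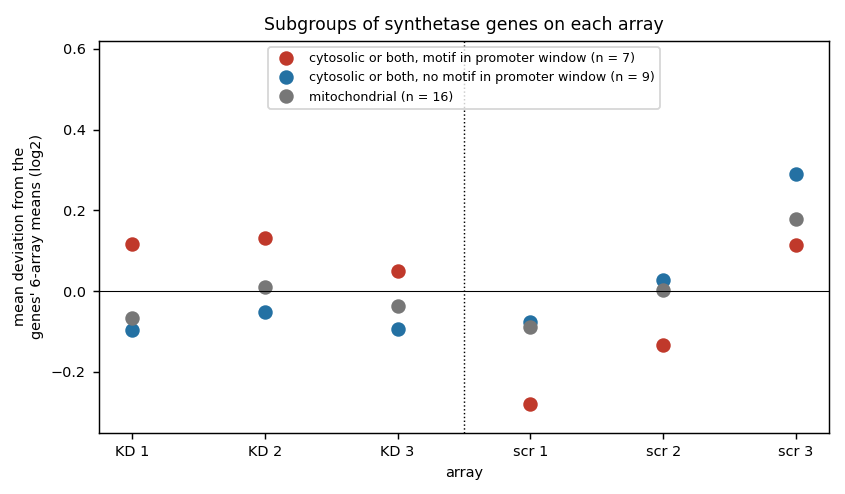
Mean deviation of 3 subgroups of synthetase genes from their own 6-array means on each array, in log2 units, with knockdown (KD) arrays left of scrambled (scr) arrays and each point 1 subgroup on 1 array. Genes with a motif match (red) lie above the genes without one (blue) on all 3 KD arrays and below them on all 3 scr arrays. Centring makes the sums of the KD and scr groups opposite in sign, so the crossing itself is not a result. Only the lack of overlap between the groups is left to read.

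Mitochondrial synthetases charge the tRNAs encoded by the mitochondrial genome, and 0 of the 16 genes passed. CARS2, the cysteinyl enzyme, read 9.06, 9.18 and 9.07 in the knockdown arrays, against 9.22, 9.33 and 9.67 in the scrambled arrays. MARS2, the methionyl enzyme, read 8.18, 8.26 and 7.92 in the knockdown arrays, against 8.25, 8.38 and 8.89 in the scrambled arrays. The groups did not overlap for CARS2, and for MARS2 the highest knockdown array exceeded the lowest scrambled array. Their log2 fold changes were −0.30 ± 0.11 and −0.39 ± 0.16 (SE; limma, adjusted p = 0.207 and 0.248), and −0.16 and −0.19 without scrambled replicate 3. RARS2, the arginyl enzyme, differed without overlap by −0.12 ± 0.07, and FARS2 (−0.16), LARS2 and TARS2 (−0.13 each), YARS2 (−0.11), IARS2 (−0.10), SARS2 (−0.09), AARS2 (−0.06), PARS2 (−0.03) and HARS2 (−0.02) overlapped. NARS2, WARS2 and EARS2 were at 0.10, 0.11 and 0.07. EARS2 charges mitochondrial glutamine tRNA with glutamate, which the amidotransferase encoded by QRSL1, GATB and GATC then converts.

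VARS2, the mitochondrial valyl enzyme, had 2 probe sets, and they gave different sizes. The one used read 8.09, 8.32 and 7.97 in the knockdown arrays, against 7.71, 8.17 and 7.44 in the scrambled arrays. The other read 7.89, 7.99 and 7.87 in the knockdown arrays, against 7.67, 7.72 and 7.87 in the scrambled arrays. Scrambled replicate 3 was the lowest scrambled array on the first and the highest on the second. The log2 fold changes were 0.35 ± 0.17 and 0.17 ± 0.08 (SE; limma over single-gene probe sets, adjusted p = 0.338 and 0.300). The first was 0.18 without scrambled replicate 3, 0.55 without scrambled replicate 2 and 0.04 with array weights.

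Setting each cytosolic gene beside the mitochondrial gene for the same amino acid, within each array, gave 17 pairs, in which a shift common to both genes on an array cancels. In the CARS1 and CARS2 pair, the difference between the 2 genes, centred on its mean over the 6 arrays, was 0.43, 0.31 and 0.43 in the knockdown arrays, against −0.39, −0.34 and −0.44 in the scrambled arrays. The log2 fold changes of the 2 cysteinyl genes thus differed by 0.78, or 1.72-fold. The signal of CARS1 stayed below that of CARS2 but came closer to it in the knockdown. Uncentred, the difference was −0.40, −0.53 and −0.40 in the knockdown arrays, against −1.22, −1.18 and −1.27 in the scrambled arrays. Scrambled replicate 3, which stood out for each of the 2 genes alone, lay with the other scrambled arrays. In the same direction, the fold changes of MARS1 and MARS2 differed by 0.52 and those of YARS1 and YARS2 by 0.33. Those of IARS1 and IARS2 differed by 0.32, SARS1 and SARS2 by 0.25, and TARS3 and TARS2 by 0.19. These 6 pairs had all knockdown arrays above all scrambled arrays. For 3 pairs they were all below: VARS1 with VARS2 at −0.99, HARS1 with HARS2 at −0.31 and FARSA with FARS2 at −0.18. Without scrambled replicate 3 these were −0.46, −0.20 and −0.13, so the valyl difference rested in large part on that array. With the other VARS2 probe set the valyl pair differed by −0.80. Without any 1 array, an alternative added after seeing the data, the cysteinyl difference stayed between 0.76 and 0.82 and the methionyl one between 0.47 and 0.57. The groups of the other 8 pairs overlapped. Some pairs share a mitochondrial gene, FARS2 or TARS2, so the pairs are not independent. The share of separated pairs among other genes was not computed, so the number of separated pairs has no background to be read against. The two-sided exact permutation p was 0.1 for each of the 9 separated pairs, the smallest that 3 against 3 arrays allows, so this test cannot pass 0.05 for any pair, and no other test of the pairs was run.

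**Figure D5:**
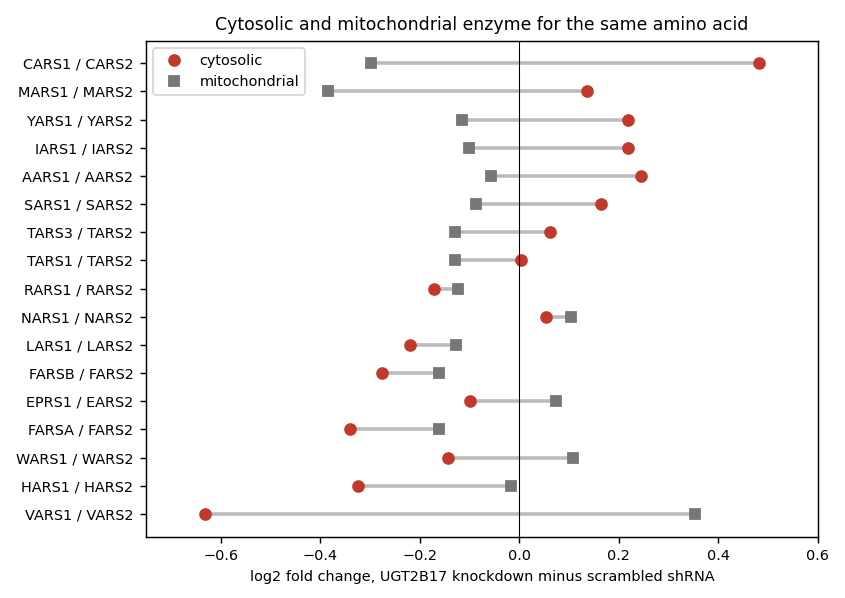
Log2 fold change, knockdown minus scrambled shRNA, of the cytosolic gene (circle) and the mitochondrial gene (square) for the same amino acid, in 17 pairs ordered by their difference. CARS1 and CARS2 at the top are 0.78 apart with the cytosolic gene higher, and VARS1 and VARS2 at the bottom are 0.99 apart with the cytosolic gene lower, a difference of −0.46 without scrambled replicate 3.

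HARS1 and HARS2 are a special case, since they are transcribed away from each other from starts with 84 bases between them. The shared stretch is shown because the estimates of the neighbours differed, −0.32 for HARS1 and −0.02 for HARS2. HARS2 read 7.86, 8.02 and 7.98 in the knockdown arrays, against 7.99, 7.91 and 8.004 in the scrambled arrays, with overlapping groups and no array apart. The sequence is from RefSeq, GRCh38.p14, chr5:140691371-140691454, plus strand, which is the direction of HARS2, and holds no match to the motif above.
HARS1 and HARS2, between the starts: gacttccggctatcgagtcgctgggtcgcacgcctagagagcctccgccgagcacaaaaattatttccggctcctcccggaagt

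By enzyme class, the 18 synthetases of class I, which share a nucleotide-binding Rossmann fold, had a median log2 fold change of −0.11. The 17 of class II, built on an antiparallel sheet, had a median of −0.03, and EPRS1 joins an enzyme of each class. Enzymes of the multi-synthetase complex, KARS1 included, a large assembly of several synthetases and scaffold proteins, gave 2 of 7 above 0 and a median of −0.10. The 13 cytosolic or both-compartment genes outside the complex gave 8 above 0 and a median of 0.05. AIMP1, a scaffold of the complex, was at 0.04 ± 0.09. CARS1 and AARS1 stand outside the complex and IARS1 within it.

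Genes that handle tRNA around charging and deliver it to the ribosome showed 0 calls, beside 3.61% of all genes. Of 22 measured genes of tRNA handling, 0 passed, 8 were above 0 and 14 below, with OSGEP, a tRNA-modifying enzyme, at −0.34 ± 0.10 and SLFN11, a tRNA-cleaving protein, at 0.25 ± 0.08 (SE; limma, adjusted p = 0.12 and 0.171). At an unadjusted p under 0.05 there were 1 above 0 and 3 below, beside 8.70% and 9.45% of all genes. All knockdown arrays lay above all scrambled arrays for 1 of the 22 and below for 4, against 11.8% and 13.1% of all genes. XPOT, which exports tRNA from the nucleus, was at 0.05. Of 10 elongation factors, 0 passed, with EEFSEC, which delivers selenocysteine tRNA, at −0.25 ± 0.08 and TUFM, the mitochondrial factor, at −0.34 ± 0.12 (limma, adjusted p = 0.119 and 0.2). At an unadjusted p under 0.05, 1 of these 10 was above 0 and 3 were below, beside 8.70% and 9.45% of all genes. TUFM read 9.46, 9.46 and 9.43 in the knockdown arrays, against 9.57, 9.68 and 10.11 in the scrambled arrays, with replicate 3 on top as for most synthetases. Of the 10 elongation factors, 6 had all knockdown arrays below all scrambled arrays and 2 had them above, beside 13.1% and 11.8% of all genes. Their median log2 fold change was −0.12.

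The amino acid response list holds the sensor GCN2, transcription factors including ATF4, and known targets other than synthetases. It was named from background knowledge but with earlier results of these data known, so its counts are not independent of them. Of its 32 genes 10 rose, 0 fell and 22 did not pass, beside 1.92% risen and 1.69% fallen over all genes, with a median log2 fold change of 0.24. ATF4 read 10.45, 10.44 and 10.42 in the knockdown arrays, against 10.09, 10.10 and 10.17 in the scrambled arrays. It rose by 0.31 ± 0.06 and DDIT3, the factor CHOP, by 0.55 ± 0.09 (SE; limma, adjusted p = 0.0291 and 0.0178). ASNS, which makes asparagine, read 9.24, 9.38 and 9.29 in the knockdown arrays, against 8.54, 8.73 and 8.79 in the scrambled arrays. Both ATF4 and ASNS separated the groups without overlap. In each, scrambled replicate 3 was the highest and replicate 1 the lowest of the scrambled arrays, the order seen for most synthetases. EIF2AK4, which encodes GCN2, was at −0.001, with a 95% interval of −0.13 to 0.13. This is a transcript level, and neither the activity of GCN2 nor the supply of amino acids was measured. Without 1 array, between 4 and 12 genes of the list rose, again added after seeing the data, with 4 without knockdown replicate 1 or 2, 5 without scrambled replicate 2 and 6 without knockdown replicate 3.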

How the data were processed

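The deposited values are log2 signals, made by the authors with RMA per the submitters' processing notes, which corrects background, normalises by quantiles and summarises probes. The sources used here give no RMA version, library files or batch. RMA compresses changes of dim probe sets, and quantile normalisation hides shifts common to most genes. The number of arrays limits the precision.

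Of 32321 probe sets, 19158 were annotated to 1 gene symbol, 1388 to several (not used) and 11775 to none. A symbol with several probe sets was represented by the one of highest mean level. Groups came from the labels. The comparison used limma 3.58.1 under R 4.3.3, with lmFit and eBayes, no covariate, a two-sided test, Benjamini-Hochberg adjustment over 18404 genes and a threshold of 0.05. The test was run on simulated data (200 changed genes, 5 runs). At 0.5 log2 units, 5.19% of its calls were false.

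Members and gene lists were chosen with earlier results of these data known, and the list of ATF4 targets came from general knowledge. All members could be named, and the other lists by smallest p. Alternatives were other normalisations, a level filter, other eBayes priors, array weights, other probe sets, a replicate block, another threshold and leaving out each array. Genes of the lists without a single-gene probe set were not analysed here.
Promoter windows came from RefSeq (GRCh38.p14) and were searched for the motif as text.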

Additional observations from a re-analysis of the deposited data

How the results depend on the processing

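The number of genes called over the whole array, 665, was 3511 with array weights, 165 with all deposited probe sets, 367 with the replicate block, 1207 at an adjusted p under 0.1, and 152 to 759 when 1 array was left out. Of the cytosolic synthetase genes, 1 was called, against 2 after quantile normalisation was repeated (AARS1 added), 9 with array weights (5 higher, 4 lower), 0 with all deposited probe sets, 0 with the replicate block (CARS1 at an adjusted p of 0.0519, limma) and 0 to 3 when 1 array was left out. Mitochondrial calls, 0 otherwise, were 2 with array weights (WARS2 higher, CARS2 lower), where GARS1 of both compartments was also called, higher. Array weights gave scrambled replicate 2 a weight of 6.12 and replicate 3 a weight of 0.2496. The cause of these shifts was not tested. The block changed no call of UGT2B17. Replicate numbers did not pair the arrays, since deviations of same-numbered arrays correlated at −0.05, −0.07 and −0.03. Leave-one-out counts for the other gene lists and differences for the pairs, and the other VARS2 probe set, were added after seeing the data. With 3 arrays a group, changes near 0.25 log2 units were below what the test recovered.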
